A study of Mus musculus with 10 samples.

Results

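The 8-mers described here begin with the C/EBP half-site TTGC or the PAR half-site TTAC, go on with any 2 bases, and end in a CG dinucleotide at bases 7 and 8 that is their only CpG. An 8-mer and its reverse complement were counted as one, and the half-site was read on the strand where it stands at bases 1 to 4. This form has 32 8-mers, of which 10 hold a further CpG and were left out. The remaining 22 of 32896 8-mers are the members, 11 with each half-site. They were chosen by their letters, with no measured value in the rule. The rule itself was chosen with earlier results of these data known. Ranks and p-values of the members are therefore not those of a set picked without sight of the data.

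The series measured the binding of bZIP DNA-binding domains to duplex DNA on protein binding microarrays, glass slides whose spotted probes together hold all short sequences in many contexts. The domains came from mouse CREB1 and CEBPB, carried an N-terminal GST tag for detection and were expressed from plasmids in a cell-free transcription and translation kit. There were 5 groups of 2 arrays: CEBPB(V285A) with methylated DNA, CREB1(A297V) with methylated DNA, both of these mutants with unmethylated DNA, and wild-type CREB1 with unmethylated DNA. The mutants were made by site-directed mutagenesis of the wild-type constructs, and methylation was done on the arrays for 3 h with M.SssI, an enzyme that methylates the cytosine of CpG. Neither wild-type CEBPB nor CREB1 on methylated DNA was analysed here, and the extent of methylation on the arrays was not measured in the files used here.

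Proteins of the bZIP family bind DNA as dimers, and the basic region of each monomer lies in the major groove over its own side of a short, often palindromic site. CREB1 recognises the cAMP response element (CRE), C/EBP proteins the C/EBP site, and the PAR proteins the PAR site, and the half-sites of these differ from each other by few bases. C/EBP proteins also form dimers with ATF4, which bind composite sites made of a C/EBP half-site and a CRE-like half-site. In 5-methylcytosine a methyl group stands where thymine carries one, and both lie in the major groove.

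The sequences below are shown because the results turn on them. The members called in either methylation comparison come first, with the end CpG in capitals, then the palindromes made of each half-site, with the half-site in capitals.

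C/EBP half-site, then AT: ttgcatCG
C/EBP half-site, then TA: ttgctaCG
C/EBP half-site, then TG: ttgctgCG
PAR half-site, then AT: ttacatCG
PAR half-site, then AC: ttacacCG
PAR half-site, then AG: ttacagCG
PAR half-site, then AA: ttacaaCG
PAR half-site, then CA: ttaccaCG
PAR half-site, then TA: ttactaCG
C/EBP palindrome: TTGCgcaa
PAR palindrome: TTACgtaa
CRE palindrome: TGACgtca

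On the other strand TTGCATCG reads CGATGCAA and TTACATCG reads CGATGTAA. If the end CG is changed to CA, that strand reads TGATGCAA, the C/EBP-ATF composite form, or TGATGTAA, which holds the PAR half-site instead of the C/EBP half-site. Both have thymine in place of the cytosine of the CpG. Every member was compared with the 8-mers that share its first 6 bases and have other bases at 7 and 8 that leave no CpG. These are called end variants here, and each member has 11 or 15 of them.

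Binding to an 8-mer is given as a Z-score, the median log2 signal over all probes that hold the 8-mer, set to 0 at the median 8-mer of the array and divided by the spread over all 8-mers. Members had 32 to 36 probes each. The 746 distinct probes with a member included 5 that held 2 or more. Over the 10 arrays, median signal intensities of 345 to 1857 stood at 1.79 to 5.10 times the spot background. Unmethylated CREB1(A297V) arrays spanned the narrowest range: their top 8-mer had a log2 signal of 2.79 and 2.68 over the array's middle 8-mer, and the other arrays had 4.73 to 6.05. Methylated and unmethylated arrays carried different array identifiers, as did those of CEBPB(V285A) and CREB1 on unmethylated DNA, so array and group cannot be told apart in these comparisons. The probe layout of the methylated CREB1(A297V) arrays also differed from that of the 8 other arrays.

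For CEBPB(V285A) the members were bound far less than the palindromes of their half-sites. The C/EBP palindrome TTGCGCAA reached a mean Z of 18.2 ± 0.493 for CEBPB(V285A) on methylated DNA and 16.2 ± 0.875 on unmethylated DNA (SD, n = 2 each). The PAR palindrome TTACGTAA reached 22.3 ± 2.32 on methylated DNA and 25.5 ± 0.0367 on unmethylated DNA for the same protein. Among the members, the mean Z for CEBPB(V285A) ran from -1.26 to 5.19 on methylated DNA and from -0.963 to 3.75 on unmethylated DNA, so the highest member stood well below both palindromes. PAR members had a median of 1.32 and C/EBP members of 0.203 on methylated DNA, against 0.952 and 0.105 on unmethylated DNA. For CREB1(A297V) the PAR members had a median Z of 2.55 on methylated DNA and 1.07 on unmethylated DNA, while the C/EBP members had -0.0367 on methylated DNA and 0.162 on unmethylated DNA. The PAR palindrome had 26.6 ± 2.54 on methylated DNA and 21.6 ± 3.47 on unmethylated DNA for this protein, and the C/EBP palindrome 4.99 ± 0.538 on methylated DNA and 2.12 ± 1.47 on unmethylated DNA. For CREB1 on unmethylated DNA the medians were 0.130 for PAR members and 0.0447 for C/EBP members. For CREB1 the C/EBP palindrome had 2.36 ± 0.374, below the C/EBP member TTGCTACG at 3.34, and the PAR palindrome had 15.4 ± 0.820 (SD, n = 2 each).

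Which members stood highest depended on the protein and on methylation. On unmethylated DNA the members that end in ACG were among the highest for all 3 proteins. The median over the 6 members with A at base 6 was 1.92 for CEBPB(V285A), 1.58 for CREB1(A297V) and 2.20 for CREB1, and the medians over members with C, G or T there lay at or below 0.622 in these 3 groups. ACG begins the ACGT that forms the centre of the CRE and PAR palindromes. TTACAACG had Z-scores of 3.98 and 3.52 for CEBPB(V285A), 2.26 and 3.10 for CREB1(A297V) and 2.58 and 3.96 for CREB1 on unmethylated DNA. TTGCTACG had 3.34 and 2.90 for CEBPB(V285A), 1.32 and 2.05 for CREB1(A297V) and 3.25 and 3.43 for CREB1. TTGCAACG had 2.04 and 1.93 for CEBPB(V285A), 1.03 and 1.41 for CREB1(A297V) and 1.90 and 2.58 for CREB1. These 3 were the highest members for CEBPB(V285A) and for CREB1. TTACTGCG, with 1.54 and 2.81, was among the 3 highest for CREB1(A297V), after TTACAACG and TTACACCG. It had 1.94 and 1.41 for CEBPB(V285A) and 1.39 and 1.42 for CREB1. On methylated DNA the order for CEBPB(V285A) was led by the AT members, TTACATCG at 5.19 ± 1.05 and TTGCATCG at 3.88 ± 0.445, with TTACAACG at 3.47 ± 0.180. For CREB1(A297V) on methylated DNA it was led by TTACACCG at 5.86 ± 0.929, TTACAACG at 4.82 ± 0.479 and TTACAGCG at 2.83 ± 0.0128. On methylated DNA TTGCAACG had 1.45 and 1.34 for CEBPB(V285A) and 1.45 and 0.977 for CREB1(A297V), and TTACTGCG had 1.52 and 1.11 for CEBPB(V285A) and 1.59 and 1.73 for CREB1(A297V). The 11 members with no call in a methylation comparison and none of the top places had mean Z-scores from -1.26 (TTGCCCCG, CEBPB(V285A) on methylated DNA) to 2.06 (TTGCCACG, CREB1).

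The first comparison set CEBPB(V285A) on methylated DNA against the same protein on unmethylated DNA. Binding to both AT members was higher on methylated DNA, and so was binding to TTACAGCG, while TTGCTACG was lower. TTGCATCG had Z-scores of 3.57 and 4.20 on the methylated arrays, against 1.06 and 0.710 on the unmethylated arrays. Both methylated arrays were above both unmethylated ones, as they were for 32.1% of all 8-mers, and both were below for 31.1%. With 2 arrays a group, that order is common and sets no 8-mer apart. In signal corrected for the median of the surrounding spots, this 8-mer stood at 2.01 times the middle 8-mer of the array on methylated DNA and 1.13 times on unmethylated DNA. The difference in Z was 3.00 ± 0.302 (SE; limma, adjusted p = 0.000187). TTACATCG had 4.45 and 5.93 on the methylated arrays and 1.29 and 1.11 on the unmethylated arrays. Its signal, corrected likewise, was 2.55 times the middle 8-mer on methylated DNA and 1.18 times on unmethylated DNA. The difference in Z was 3.99 ± 0.441 (SE; limma, adjusted p = 0.000273). Ordered by this difference over all 32896 8-mers, TTACATCG stood at rank 1 and TTGCATCG at rank 5 in this fit. Of all 8-mers, 7.57% were called in either direction, 3.84% higher and 3.73% lower, and of the 10762 8-mers with exactly 1 CpG 2.04% were higher and 6.61% lower. Of the members 3 of 22 were called higher and 1 lower. The median difference was 0.111 over the members and 0.00616 over all 8-mers.

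TTACAGCG had Z-scores of 1.51 and 1.52 on methylated DNA, against -0.126 and -0.463 on unmethylated DNA. It was higher by 1.81 ± 0.303 (SE; limma, adjusted p = 0.00269). The call was lost without the first methylated array, and also when the median of the surrounding spots was not subtracted. TTGCTACG was the member that fell, with 1.79 and 1.69 on methylated DNA and 3.34 and 2.90 on unmethylated DNA. Its difference of -1.38 ± 0.392 (SE) passed the threshold with all arrays (limma, adjusted p = 0.0389). Without any one of the 4 arrays of this comparison it no longer did (-1.60 to -1.16). The call was also lost with signal minus background, with quantile normalization and without subtraction of the median of the surrounding spots. The other 18 members were not called. TTACAACG, the highest of them, had 3.60 and 3.35 on methylated DNA and 3.98 and 3.52 on unmethylated DNA, so its groups lay close together. TTACACCG had 1.16 and 1.35 on methylated DNA and 0.535 and 0.669 on unmethylated DNA, TTACCACG had 1.56 and 1.54, against 1.17 and 1.20, and TTACTACG had 1.44 and 1.91, against 1.78 and 1.92. TTGCTGCG stayed near the array median, with 0.0209 and 0.386 on methylated DNA and 0.0800 and 0.130 on unmethylated DNA.

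For CREB1(A297V) the members with higher binding on methylated DNA were mostly those with the PAR half-site, and TTGCATCG stayed near 0. Over all 8-mers 21.6% were called in either direction in this comparison, 10.4% higher and 11.1% lower, and of the 8-mers with exactly 1 CpG 9.89% were higher and 11.6% lower. Of the members 7 of 22 were called higher and 0 lower, 6 of 11 with the PAR half-site and 1 of 11 with the C/EBP half-site. By the unadjusted p of limma, 9 of the 22 members were below 0.05. The share of all 8-mers below it is not given here, so this count sets the members apart in nothing. The median difference was 1.06 over the PAR members, -0.293 over the C/EBP members and 0.0209 over all 8-mers. TTACACCG had Z-scores of 5.20 and 6.51 on methylated DNA, against 1.70 and 3.63 on unmethylated DNA. Its difference of 3.19 ± 0.509 (SE) was the largest among the members (limma, adjusted p = 0.000412), with 1.36 the SD of its unmethylated arrays. TTACAGCG had 2.84 and 2.82 on methylated DNA and 0.621 and 1.38 on unmethylated DNA, a difference of 1.83 ± 0.303 (SE; limma, adjusted p = 0.000558). These 2 calls held in each of the alternatives and without any one array.

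TTACAACG had Z-scores of 4.48 and 5.16 for CREB1(A297V) on methylated DNA, against 2.26 and 3.10 on unmethylated DNA. It was higher by 2.15 ± 0.535 (SE; limma, adjusted p = 0.00855). TTACATCG had 2.02 and 3.07 on methylated DNA and 0.584 and 0.835 on unmethylated DNA, and was higher by 1.84 ± 0.441 (SE; limma, adjusted p = 0.00683). In both, the lower methylated array stood above the higher unmethylated one, an order that 30.5% of all 8-mers had in this protein, with the opposite order in 29.1%. TTACCACG had 2.30 and 3.15 on methylated DNA and 1.22 and 1.73 on unmethylated DNA. TTACTACG had 2.56 and 2.92 on methylated DNA and 1.59 and 1.77 on unmethylated DNA. TTGCTGCG, the only C/EBP member called, had 0.265 and 0.257 on methylated DNA and -0.325 and -0.780 on unmethylated DNA. It therefore stayed near the array median in both states, and its difference was 0.813 ± 0.241 (SE; limma, adjusted p = 0.0218). The calls of these 5 members depended on single arrays. TTACATCG was lost without the second methylated array (1.31), and TTACAACG without that array (1.81) or the first unmethylated array (1.73). TTACCACG was lost without either of the same 2 arrays (0.821 and 0.997), TTACTACG without any one of the 4, and TTGCTGCG without 3 of the 4. With all arrays kept, TTACAACG held its call in each of 11 alternatives of the processing. TTACATCG lost it in 2 of them, TTACCACG in 3, and TTACTACG and TTGCTGCG in 5 each. TTGCTACG was not called here, with 2.57 and 2.13 on methylated DNA and 1.32 and 2.05 on unmethylated DNA.

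The difference between the 2 proteins was itself tested as an interaction, which asks whether methylation changed binding by a different amount for CEBPB(V285A) and for CREB1(A297V). TTGCATCG was the member for which it did. Its Z-scores for CREB1(A297V) were 0.00105 and -0.0744 on methylated DNA, against 0.0990 and 0.413 on unmethylated DNA, all near the array median. CREB1 on unmethylated DNA likewise gave 0.137 and 0.360. The interaction was 3.29 ± 0.427 in Z (SE; limma, adjusted p = 0.00286), and 3.07% of all 8-mers were called in either direction, 1.42% higher and 1.64% lower. Of the 8-mers with exactly 1 CpG 0.818% were higher and 2.99% lower. Without any one of the 8 arrays involved it was still called, at 2.98 to 3.61. TTACATCG, higher in both proteins, had an interaction of 2.15 ± 0.624 that did not pass the threshold (SE; limma, adjusted p = 0.0630). TTACACCG had -2.53 ± 0.720 (adjusted p = 0.0592) and TTGCTACG -2.04 ± 0.554 (adjusted p = 0.0502).

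Replacing the end CpG placed these values beside those of the same stem. With the stem TTGCAT, the strongest end variant of CEBPB(V285A) was TTGCATAA, at a mean Z of 14.8 ± 0.685 on methylated DNA and 14.3 ± 0.261 on unmethylated DNA. TTGCATCA, the composite form, had 13.5 and 13.0 on methylated DNA, against 12.1 and 11.2 on unmethylated DNA. The CG end thus stood far below the CA end in both states. TTGCATTG had 2.64 and 2.31 on methylated DNA and 2.06 and 2.02 on unmethylated DNA. TTGCATTA had 3.71 and 4.60 on methylated DNA and 2.61 and 2.58 on unmethylated DNA. On methylated arrays 4 of the 15 end variants had a higher mean Z than TTGCATCG, against 13 of 15 on unmethylated arrays. With CREB1(A297V), TTGCATCA had 2.67 and 3.58 on methylated DNA and 2.03 and 2.40 on unmethylated DNA, and 14 of the 15 end variants stood above TTGCATCG on methylated arrays, against 9 of 15 on unmethylated arrays.

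The stem TTACAT gave a similar order for CEBPB(V285A). TTACATAA stood at 16.1 ± 1.02 on methylated DNA and 15.9 ± 0.256 on unmethylated DNA. TTACATCA had 13.6 and 13.3 on methylated DNA, against 12.2 and 12.4 on unmethylated DNA. TTACATTG had 3.36 and 3.83 on methylated DNA and 2.65 and 2.38 on unmethylated DNA, and TTACATTA had 6.17 and 6.88, against 4.33 and 4.80. On methylated arrays 7 of the 15 end variants stood above TTACATCG, against all 15 on unmethylated arrays. With CREB1(A297V) all 15 stood above it in both states.

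End variants without any CpG in the 8-mer were not flat between methylated and unmethylated arrays. For CEBPB(V285A), 6 of the 15 end variants of TTGCAT and 5 of the 15 of TTACAT were called higher, against 3.84% of all 8-mers. Their differences ran from -0.0313 to 2.22 for TTGCAT, with a median of 1.04, and from 0.149 to 2.81 for TTACAT, with a median of 1.12. In both stems 0 of 15 had a larger difference than the CG end. For CREB1(A297V) the end variants of TTACAT ran from 0.351 to 4.31 with a median of 1.81, and 7 of 15 had a larger difference than the 1.84 of TTACATCG. The probes of these 8-mers carry other CpGs outside them, at a median of 1 to 2 a probe for the CG end and for the end variants alike, and 4 probes of each of TTGCATCG and TTACATCG had none. The part of those other CpGs in the differences was not tested.

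The end CpG score puts this comparison into 1 value an array: the Z of the stem with CG minus the mean Z of its end variants. It was computed for all 2911 stems of 6 bases without CpG, so that a shift of all 8-mers with a stem cancels. For CEBPB(V285A) the score of TTGCAT was -0.990 and -0.0572 on methylated DNA, against -2.25 and -2.55 on unmethylated DNA. It was higher by 1.88 ± 0.318 (SE; limma, adjusted p = 0.00492). For TTACAT the scores were -1.55 and 0.148 on methylated DNA and -3.33 and -3.54 on unmethylated DNA, higher by 2.73 ± 0.440 (SE; limma, adjusted p = 0.00389). Over all stems 9.62% were called in either direction, 1.58% higher and 8.04% lower, and these 2 stems held ranks 3 and 1 among the 2911. TTACAG was called higher as well, at -0.559 and -0.464 on methylated DNA against -1.34 and -1.78 on unmethylated DNA (1.05 ± 0.302, SE; limma, adjusted p = 0.0340). TTGCTA was called lower, at 1.21 and 1.02 on methylated DNA against 2.92 and 2.56 on unmethylated DNA (-1.62 ± 0.381, SE; limma, adjusted p = 0.0166). In all 5 groups TTGCTACG stood above each of its 15 end variants.

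These calls depended on the arrays and on the scale. Without the second methylated CEBPB(V285A) array the scores of TTGCAT (1.41, adjusted p = 0.0674) and TTACAT (1.89, adjusted p = 0.0602) missed the threshold, and those of TTACAG and TTGCTA missed it without any one of the 4 arrays. On the authors' deposited Z-scores, which are on a linear signal scale, the difference was -1.54 for TTGCAT (adjusted p = 0.190) and -0.236 for TTACAT (adjusted p = 0.919), while both members alone were called higher there too. With CA as the single end variant, TTGCAT had 1.38 (adjusted p = 0.0620) and TTACAG -0.0982 (adjusted p = 0.921), and TTGCTA lost its call too. TTGCAT also lost its call without the local median. Of the 13 alternatives other than left-out arrays, TTACAG kept its call in 6.

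For CREB1(A297V) the end CpG score was called higher for 1 of the 7 members that were called higher on methylated DNA. TTACAG was called higher, at 0.348 and -0.179 on methylated DNA against -1.36 and -1.10 on unmethylated DNA (1.31 ± 0.302, SE; limma, adjusted p = 0.00803). It lost the call without the first methylated array (1.05), with signal minus background, and with CA or TG as the single end variant. TTACAT was at -3.30 and -3.25 on methylated DNA and -2.78 and -3.70 on unmethylated DNA, a difference of -0.0360 ± 0.440 (SE; adjusted p = 0.964). TTACAC, with the largest difference of its member, had a score difference of 0.441 ± 0.337 (SE; adjusted p = 0.389). Its end variant TTACACAT bound at 16.8 ± 1.84 on methylated DNA and 10.9 ± 2.50 on unmethylated DNA. The scores of TTACAA (0.980 ± 0.509), TTACCA (0.511 ± 0.342), TTACTA (-0.370 ± 0.381) and TTGCTG (0.806 ± 0.274) were not called either (SE; limma, adjusted p = 0.199, 0.323, 0.536 and 0.0510). Over all stems 15.6% were called in either direction, 7.69% higher and 7.94% lower. Of the members 1 was called higher and 3 lower, the last being TTACTC (-1.59 ± 0.266), TTACTG (-1.01 ± 0.336) and TTGCTC (-0.806 ± 0.256; SE, limma, adjusted p = 0.00122, 0.0452 and 0.0373). TTACTC kept its call without any one array, but lost it with CA (-0.120, adjusted p = 0.851) or TG (-0.0932, adjusted p = 0.882) as the single end variant and with quantile normalization (-0.616, adjusted p = 0.148). TTACTG lost its call without 3 of the 4 arrays, each left out in turn, and TTGCTC without any one of them. Of the 13 alternatives other than left-out arrays, TTACTG kept its call in 5 and changed sign in 1. TTGCTC kept its call in 5 of the 13.

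On the probes, the higher binding of CEBPB(V285A) on methylated DNA differed with the base before the half-site. The following 4 probes hold TTACATCG, the member with the largest difference. They are the 3 with the highest mean signal on methylated CEBPB(V285A) arrays and the one in the middle of that order over 35 probes, each with its variable region of 35 bases and the 8-mer in capitals.

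Probe ranked 1: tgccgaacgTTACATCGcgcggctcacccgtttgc
Probe ranked 2: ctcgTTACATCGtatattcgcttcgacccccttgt
Probe ranked 3: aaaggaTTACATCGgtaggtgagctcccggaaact
Probe ranked 18: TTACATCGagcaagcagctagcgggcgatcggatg

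For CEBPB(V285A) the probe ranked 1 had signals of 7579 and 4246 on methylated arrays, against 1572 and 1934 on unmethylated arrays. The probe ranked 2 had 5927 and 3663 on methylated arrays and 2182 and 2598 on unmethylated arrays. The probe ranked 3 had 4599 and 3832 on methylated arrays and 3362 and 3423 on unmethylated arrays. The array medians differ, so log2 signals were also taken after subtraction of the local median and centring on the array median. On this scale the 3 probes stood at 4.14, 3.60 and 3.40 log2 units on methylated DNA and 1.34, 1.66 and 2.32 on unmethylated DNA. The log2 values of probes below, and the counts above the array median, are on this scale too. The probe in the middle of the order, written here on the strand opposite to that on the array, stood at 1.57 on methylated DNA and 0.23 on unmethylated DNA. With CREB1(A297V) on methylated DNA the 4 probes stood at 0.70, 2.00, 2.03 and 0.66 log2 units.

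Over all 35 probes of TTACATCG, 34 and 32 lay above the array median on methylated CEBPB(V285A) arrays, against 26 and 25 on unmethylated arrays. Their upper quartiles were 2.38 and 2.31 log2 units on methylated DNA and 1.13 and 0.85 on unmethylated DNA. Of the 33 probes of TTGCATCG, 27 and 28 lay above the median on methylated arrays and 25 and 24 on unmethylated arrays, with upper quartiles of 2.08 and 2.33 on methylated DNA and 0.86 and 0.90 on unmethylated DNA. The medians over probes were 1.10 and 1.55 for TTACATCG and 0.88 and 1.09 for TTGCATCG on methylated DNA, against 0.25 and 0.21 for TTACATCG and 0.21 and 0.13 for TTGCATCG on unmethylated DNA. Most probes of both members were thus above the array median in both states, and the upper quartiles differed more than the medians did.

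Sorted by the base that precedes the half-site, probes of TTACATCG with A or G there had higher CEBPB(V285A) signals than those with C or T, at 8 probes a base. The medians for this protein with A before it were 2.45 and 2.41 log2 units on methylated arrays, against 1.18 and 1.10 on unmethylated arrays. With G they were 2.49 and 2.22 on methylated arrays and 0.80 and 0.62 on unmethylated arrays. With C they were 0.76 and 1.32 on methylated arrays and 0.17 and 0.17 on unmethylated arrays, and with T 0.19 and 0.40 on methylated arrays and -0.14 and -0.15 on unmethylated arrays. For CREB1(A297V) on methylated arrays the medians of TTACATCG were 1.35 and 1.64 with A, 0.39 and 0.36 with G, 0.35 and 0.46 with C and 0.26 and 0.51 with T, so that A alone stood apart there. A purine before TTGC is part of the C/EBP consensus. The same split for TTGCATCG, added after its values were seen, gave 1.32 and 1.48 with A, 2.10 and 2.34 with G, 0.19 and 0.59 with C and 0.19 and 0.24 with T on methylated arrays. On unmethylated arrays the medians for TTGCATCG were 0.92 and 0.81 with A, 0.72 and 0.76 with G, 0.12 and 0.12 with C and 0.07 and 0.06 with T. Probes that differ in this base differ in all their other bases as well, so these medians are a description and were not tested.

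The windows shifted by 1 base were also picked after values were seen. The upstream windows hold the half-site and the first base of the CpG, with any base after it, so the CpG is incomplete in them. For CEBPB(V285A) the upstream windows of TTGCATCG differed between methylated and unmethylated DNA by 2.55 with A added (ATTGCATC; limma, adjusted p = 0.00184), 1.97 with G (GTTGCATC, adjusted p = 0.0129) and 1.20 with C (CTTGCATC, adjusted p = 0.0104), and TTTGCATC was not called (0.329, adjusted p = 0.516). Those of TTACATCG were called with C (CTTACATC, 2.35, adjusted p = 0.0257) and T (TTTACATC, 1.69, adjusted p = 0.00751), and not with A (ATTACATC, 2.93, adjusted p = 0.0584) or G (GTTACATC, 0.868, adjusted p = 0.329). Downstream, the 4 windows that keep the CpG of TTGCATCG and lose the first T of the half-site differed by -0.608 to 0.430 and were not called (limma, adjusted p = 0.180 to 0.956). For TTACATCG the 4 downstream windows differed by -0.548 to 0.366 and were not called either (adjusted p = 0.254 to 0.585). These windows share probes with the members, so they are no independent measurement.

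On unmethylated DNA the mutants were also set against CREB1. For CEBPB(V285A), 6.20% of all 8-mers were called in either direction, 3.67% higher and 2.53% lower, and of those with exactly 1 CpG 3.14% higher and 2.71% lower. Of the members TTACCTCG was called higher, by 1.36 ± 0.400 (SE; limma, adjusted p = 0.0492), and TTGCTCCG lower, with a difference of -1.10 ± 0.232 (adjusted p = 0.00918). TTACCTCG had 1.11 and 0.791 for CEBPB(V285A), against -0.582 and -0.231 for CREB1, and TTGCTCCG had -0.913 and -1.01 for CEBPB(V285A), against 0.0201 and 0.253 for CREB1. All of these lie near the array median. Of the members called in a methylation comparison, for CREB1 TTACATCG had 0.0359 and 0.115, TTACACCG 0.474 and 0.524, TTACAGCG -0.633 and -0.272 and TTGCTGCG -0.0126 and 0.0772, while TTACCACG had 1.28 and 2.06 and TTACTACG 1.78 and 2.56. TTACCTCG lost its call without any one of the 4 arrays and TTGCTCCG without 3 of them. The AT members did not pass: TTGCATCG differed by 0.636 ± 0.302 (adjusted p = 0.223) and TTACATCG by 1.13 ± 0.441 (adjusted p = 0.135). For CREB1(A297V), 18.9% of all 8-mers were called in either direction, 8.13% higher and 10.8% lower, and of those with exactly 1 CpG 3.18% higher and 18.7% lower. Of the members 4 were higher and 3 lower. All 4 higher ones were PAR members, TTACACCG by 2.17 ± 0.509, TTACAGCG by 1.46 ± 0.303, TTACTCCG by 1.46 ± 0.284 and TTACTTCG by 1.02 ± 0.266. All 3 lower ones were C/EBP members that end in ACG, TTGCTACG by -1.66 ± 0.392, TTGCCACG by -1.29 ± 0.342 and TTGCAACG by -1.02 ± 0.338 (SE; limma, adjusted p from 0.00153 to 0.0410 over these 7). Without the second CREB1(A297V) array TTACACCG came to 1.21 and lost its call, and without the first TTGCTACG (-1.29) and TTGCAACG (-0.830) lost theirs. TTACTTCG (0.828) was lost without the first CREB1 array, and TTGCCACG (-0.835) and TTGCAACG (-0.682) without the second. On the authors' deposited Z-scores, TTGCTACG alone of these 7 kept its call.

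On methylated DNA CEBPB(V285A) was set against CREB1(A297V), and 12.2% of all 8-mers were called in either direction, 6.75% higher and 5.49% lower, and of those with exactly 1 CpG 7.98% higher and 4% lower. Of the members 2 were called higher and 5 lower. The AT members were higher for CEBPB(V285A), TTGCATCG by 3.92 ± 0.302 (SE; limma, adjusted p = 1.57e-07) and TTACATCG by 2.64 ± 0.441 (adjusted p = 0.000590). Of the PAR members 5 were lower for CEBPB(V285A), led by TTACACCG at 1.16 and 1.35 for CEBPB(V285A) against 5.20 and 6.51 for CREB1(A297V), a difference of -4.60 ± 0.509 (adjusted p = 9.15e-06). The others were TTACTCCG at -1.62 ± 0.284, TTACAGCG at -1.31 ± 0.303, TTACCCCG at -1.26 ± 0.252 and TTACCACG at -1.17 ± 0.372 (SE; limma, adjusted p from 0.000954 to 0.0451). Without the second CREB1(A297V) array TTACCACG came to -0.743, and it lost its call without 3 of the 4 arrays. TTACAGCG lost its call without any one array and TTACCCCG without 2 of them. TTACTCCG kept its call without any one array but lost it on the authors' scores. The calls of TTGCATCG, TTACATCG and TTACACCG held in each of the alternatives and without any one array.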

How the data were processed

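Per the file headers, the deposited tables hold the median signal intensity and median background intensity of each spot, linear and not background-subtracted. A deposited table of the authors' own Z-scores, one score per 8-mer and array with values that follow linear signal, has steps not given in the sources used here. It correlated at 0.888 to 0.992 per array with the scores computed below, put on a linear scale, and served as an alternative.

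From the log2 signal of each of 40330 probes, the median of the surrounding 15 by 15 spots was subtracted. The median was taken over the probes with an 8-mer on either strand (15 to 42 probes, at least 8 required), centred on the array median and divided by the scaled median absolute deviation. Groups were compared with limma 3.58.1 under R 4.3.3, by lmFit and eBayes with a variance trend, over 10 arrays in 5 groups (5 residual degrees of freedom). The p-values are two-sided, adjusted by Benjamini-Hochberg over all 32896 8-mers or 2911 stems, and called at an adjusted p below 0.05. An exact test of 2 against 2 arrays cannot go below 0.333. Replicates correlated over all 8-mers at 0.872 for CREB1(A297V) on unmethylated DNA, and at 0.935 to 0.973 in the other groups. Nothing in the labels says that replicates come from separate protein preparations. The spread that p-values rest on is therefore that between arrays and may be technical. Same-numbered arrays deviated together at correlations from -0.213 to 0.333, so the numbers were not taken as pairs. The number of arrays limits the precision. The scoring and the fits were tested on simulated data.

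Members, lists and tests were chosen with earlier results of these data known. Every array's value is given for members called in either methylation comparison and for the 3 highest of each group, and end variants are named where they end in CA, TG or TA or are the strongest. Alternatives changed the score, the probes, the end variants, the fit and the arrays 1 at a time.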

Additional observations from a re-analysis of the deposited data

Results flagged for a closer look

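TTGCATCG differed between the 2 proteins in its response to methylation, by a test of the difference itself: the interaction was 3.29 in Z for CEBPB(V285A) minus CREB1(A297V), as described above. In Z, CEBPB(V285A) gave 3.57 and 4.20 on methylated DNA and 1.06 and 0.710 on unmethylated DNA, and CREB1(A297V) gave 0.00105 and -0.0744 on methylated DNA and 0.0990 and 0.413 on unmethylated DNA. The adjusted p of limma ranged from 9.36e-07 to 0.0347 over the alternatives and left-out arrays, and all of them kept the call.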

How the results depend on the processing

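Leaving out 1 array at a time gave 2 to 3 called members for the methylation difference of CEBPB(V285A) (4 with all arrays), 2 to 6 for that of CREB1(A297V) (7) and 1 to 6 for their interaction (1). It gave 0 to 1 for CEBPB(V285A) against CREB1 (2), 5 to 9 for CREB1(A297V) against CREB1 (7) and 4 to 6 for the mutants on methylated DNA (7). For the end CpG score it gave 0 to 2 in CEBPB(V285A) (4) and 1 to 5 in CREB1(A297V) (4). Other alternatives moved these counts by over 1.5 times. Without the local median the members called were 2 for CEBPB(V285A), 4 for CREB1(A297V), 2 for the interaction, 0 for CEBPB(V285A) against CREB1, 3 for CREB1(A297V) against CREB1 and 2 for the end score of CEBPB(V285A). A trimmed mean over probes gave 8, 11 and 5 for the first 3, 6 for CEBPB(V285A) against CREB1 and 13 for the mutants on methylated DNA. Log2 scores not divided by their spread gave 12 for CREB1(A297V), 6 for the interaction, 5 for CEBPB(V285A) against CREB1, and 12 and 7 for the end scores of CEBPB(V285A) and CREB1(A297V). Fits to the compared groups alone gave 4 for CREB1(A297V), 3 for the interaction, 3 for CREB1(A297V) against CREB1, 12 for the mutants on methylated DNA and 7 and 2 for the end scores. The authors' scores gave 4 for the interaction, 1 for CREB1(A297V) against CREB1 and 1 for the end score of CEBPB(V285A). The interaction had 2 with signal minus background, with dim spots left out, with probes holding a CRE, PAR or C/EBP core left out and without the variance trend. CEBPB(V285A) against CREB1 had 1 without core probes, without the trend and with quantile normalization, and the end score of CREB1(A297V) had 1 with TG as the single end variant. The number of all 8-mers called moved with the settings too, as given below for CEBPB(V285A). These counts alone therefore do not show a change particular to the members. The cause of these changes was not tested. For single members that were called, 417 recomputed values kept direction and call, 139 kept the direction and lost the call, and 4 changed sign. The methylation differences of TTGCATCG and TTACATCG in CEBPB(V285A) and of TTACACCG and TTACAGCG in CREB1(A297V), and the interaction of TTGCATCG, kept the call in each alternative and without any one array.

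The 4 changes of sign were the end CpG scores of TTGCATCG (-1.54) and TTACATCG (-0.236) in CEBPB(V285A) on the authors' scores (adjusted p = 0.190 and 0.919), that of TTACAGCG with CA as the single end variant (-0.0982), and that of TTACTGCG in CREB1(A297V) with the trimmed mean (0.0876). The share of called 8-mers that were higher on methylated DNA in CEBPB(V285A) was 50.7%, against 36.6% with signal minus background and 23.3% without the local median. In CREB1(A297V) it was 48.3%, and 61.7% on the authors' scores. In the interaction the share was 46.4%, against 17.6% on the authors' scores, 27.0% with signal minus background and 16.6% without the local median. For CEBPB(V285A) against CREB1 it was 59.2%, and 80.6% on the authors' scores and 79.2% without the local median. For CREB1(A297V) against CREB1 it was 42.9%, and 32.6% on the authors' scores and 29.4% undivided. Among the 3 and 1 members called higher and lower for the end score of CEBPB(V285A), undivided log2 scores gave 3 and 9, and among the 1 and 3 of CREB1(A297V) quantile normalization gave 5 and 1. All 8-mers called for CEBPB(V285A) numbered 2490, and from 447 without the local median to 10025 undivided.

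With the replicate number as a block, the members called were 4 for CEBPB(V285A), 8 for CREB1(A297V), 4 for the interaction, 2 and 7 for the mutants against CREB1, 8 for the mutants on methylated DNA and 4 and 5 for the end scores. These held all the members called without the block, and the block moved a count by over 1.5 times for the interaction alone (2 higher and 2 lower, against 1 and 0). The share of all 8-mers or stems called with the block is not given here, so these counts alone do not show a change particular to the members. The replicate numbers were not shown to pair the arrays. Signal over background, 1.79 to 5.10, limits what members near the array median can show.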

Other observations

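Among the end variants of the 22 members, those ending in GA had the most calls higher on methylated DNA for CEBPB(V285A), at 7 of the 16 stems where that end leaves no CpG. The AG end was called higher at 5 of 22 stems, the CA and AA ends at 4 of 22 each, the GG end at 4 of 16 and the CG end at 3 of 22, in limma with adjustment over all 8-mers. Of all 8-mers 3.84% were called higher. The median difference was 0.716 for the GA end and 0.111 for the CG end. Over the ends it ran from -0.124 (TT) to 0.952 (AA). TTGCATGA had Z-scores of 5.11 and 5.21 on methylated DNA, against 3.26 and 2.81 on unmethylated DNA, a difference of 2.13 (adjusted p = 0.00211). TTACATGA had 7.12 and 6.83 on methylated DNA, against 3.89 and 4.43 on unmethylated DNA, a difference of 2.81 (adjusted p = 0.00434). For CREB1(A297V) the AA and AG ends were each called higher at 12 of 22 stems, the CG end at 7 of 22 and the GA end at 4 of 16, against 10.4% of all 8-mers. The median difference was 0.275 for the CG end, and over the ends it ran from -0.264 (TC) to 1.29 (AA). The ends were compared after their values were seen, and the differences between ends were not tested.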
